A study of Mus musculus with 11 samples.

Results

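Tetraspanins are small proteins that cross the plasma membrane several times and that gather integrins, receptors and other tetraspanins into membrane domains, often called the tetraspanin web. They carry little signalling activity of their own and act mainly through the partners they hold. In lymphocytes they are known for their part in receptor signalling, adhesion and the traffic of vesicles. The 10 genes described here are Cd81, a tetraspanin of receptor complexes at the lymphocyte surface, Cd9, a partner of integrins, Cd37 and Cd53, which are largely restricted to leukocytes, Cd63, a tetraspanin of late endosomes, lysosomes and exosomes, Cd82, a tetraspanin linked to cell motility, Cd151, a partner of laminin-binding integrins, Tspan32, a haematopoietic tetraspanin, and the more widely expressed Tspan3 and Tspan13. They were chosen by their family and by their expression in lymphocytes, with Cd81 chosen from the contrast of Arpp21-/- against WT in DN3 thymocytes, in which it was higher. They are 10 of 35975 genes with a transcript in the deposited tables, and all 10 were among the 13780 genes that passed the filter on low counts.

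The libraries hold RNA of double-negative (CD4- CD8-) thymocytes of mice labelled as C57BL/6J, sorted by flow cytometry at DN2, the stage before T lineage commitment is complete, and at DN3, the stage of T cell receptor beta rearrangement. At DN2 there were 3 WT and 2 Arpp21-/- libraries, and at DN3 there were 3 of either genotype. Arpp21 is an RNA-binding protein that recognises uridine-rich elements in 3′-UTRs, and the Arpp21-/- mice are 1 line in which CRISPR/Cas9 with 2 guides removed an exon, which shifts the reading frame of the long isoform in every cell of the animal. No treatment was given, the labels give no age for a library, and the study's methods state that animals of both sexes were used with matched controls. The labels do not say whether libraries of a group came from separate animals, so p-values measure the spread between these libraries, which may be in part technical.

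Depth ranged from 14531762 to 63109504 estimated counts per library. Levels are given as CPM, counts relative to the library total after TMM scaling, when 1 gene is compared between libraries, and as TPM, which also divides by transcript length, when genes are compared with each other. The main transcript of Arpp21 had 15.8 to 57.8 CPM in DN2 WT, 3.95 and 0 CPM in DN2 Arpp21-/-, 88.0 to 109 CPM in DN3 WT and 0 to 15.4 CPM in DN3 Arpp21-/- libraries, so in this transcript each knockout library was below each WT library of its stage. It held 21.8% of the Arpp21 counts in DN2 WT and 29.2% in DN3 WT. Over all its transcripts Arpp21 had 125 to 183 CPM in DN2 WT and 28.5 and 86.9 CPM in DN2 Arpp21-/-. At DN3 it had 312 to 386 CPM in WT and 142 to 335 CPM in Arpp21-/-, with overlap. DN2 Arpp21-/- replicate 2 and DN3 Arpp21-/- replicate 3 stood apart, with TMM factors of 0.599 and 0.861 against 1.03 to 1.11 in the other 9 libraries, and results that rest on them are given with and without them. Of 10 genes listed as DN3 markers, all had a positive log2 fold change from DN2 WT to DN3 WT. Of these, edgeR called 7 higher, beside 256 of all 13780 genes. Of 8 genes listed as DN2 markers, 5 were positive and 3 negative. Only Cd44, which is used to sort the stages, was called lower among the 8, beside 2.22% of all genes. Tcf7 of that list had 186 to 265 TPM in DN2 WT and 467 to 543 TPM in DN3 WT. Ptcra, the pre-TCR alpha chain, had 1.11 to 3.78 TPM in DN2 WT and 490.3 to 565 TPM in DN3 WT, and Kit, the stem cell factor receptor, had 114 to 146 and 18.8 to 30.1 TPM. In DN2 Arpp21-/- replicate 2 Kit was at 11.9 TPM, below each DN2 WT and each DN3 WT library, so in that marker it was like neither WT stage. Gata3 and Tcf7 had 3.53 and 10.5 TPM in the lower of the 2 DN2 Arpp21-/- libraries, also below each WT library of both stages. Ptcra had 3.11 and 5.10 TPM in the 2 DN2 Arpp21-/- libraries, far below each DN3 WT library. Kit was at 6.49 TPM in DN3 Arpp21-/- replicate 3, also below each DN3 WT library.

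Because the RNA-binding protein deleted here recognises uridine-rich elements, the 3′-UTR of 1 coding transcript per gene was read first. The windows of 30 bases with the most uridines are shown for Cd9 and Cd53, which have long uridine runs, and, for contrast, for Tspan32 and Cd37, with the longest run of uridines in capitals. They come from the transcripts of GRCm38, 5′ to 3′, at chr6:125460452-125460481 (minus strand) for Cd9, chr3:106760525-106760554 (minus) for Cd53, chr7:143018957-143018986 (plus) for Tspan32 and chr7:45233632-45233661 (minus) for Cd37, all within the annotated 3′-UTR.
Cd9: uuuugaUUUUUUUUUUUgguuguuuauuuu
Cd53: cuggguguuuuuggUUUUUUUUUUUUUUUU
Tspan32: caggugugUUaguuaaucuuacauuguuau
Cd37: aauaaauccccuuugggUUUUUggcuuuuu
The windows held 24 uridines in Cd9, 23 in Cd53, 14 in Tspan32 and 15 in Cd37. Over the whole 3′-UTR, the longest uridine run was 11 bases in Cd9, 16 in Cd53 and 10 in Tspan13, and 4 in Tspan32 and in Cd151, against a median of 6 over 11958 genes. A run of at least 5 uridines was present in 8 of the 10 genes and in 72.9% of all genes. Thus 4 of the 10 genes had a longest run above the median of all genes and 1 was at it. A run is a description of the sequence and not evidence that a protein binds there, and binding data were not analysed here.

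In the level of their mRNA the 10 genes covered a wide range in DN2 WT thymocytes. Tspan13 was highest, with a mean of 418 TPM (367 to 462 over 3 libraries), followed by Cd53 with 318 TPM (305 to 326), and the lowest was Cd151 with 3.29 TPM (2.86 to 3.64). Between these lay Cd37 (128 TPM), Tspan3 (100.6 TPM), Cd82 (75.4 TPM), Cd81 (45.7 TPM), Cd9 (43.9 TPM), Tspan32 (26.4 TPM) and Cd63 (10.3 TPM). In that order the libraries of Cd37 and Tspan3, of Tspan3 and Cd82, and of Cd81 and Cd9 overlapped, while the other neighbours were apart in all 3 libraries. In DN3 WT the order was Tspan13 (390 TPM, 377 to 408), Cd82 (175 TPM), Cd53 (105 TPM), Tspan3 (81.1 TPM), Cd37 (63.7 TPM), Cd81 (16.3 TPM), Cd9 (14.4 TPM), Cd151 (2.58 TPM), Tspan32 (1.59 TPM) and Cd63 (0.216 TPM). Cd82 thus took the place of Cd53 below Tspan13, and Cd63 and Tspan32 fell below Cd151 in mean level. The 10 genes summed to 1117 to 1226 TPM in DN2 WT and 796 to 922 TPM in DN3 WT, and to 1270 and 1438 TPM in DN2 Arpp21-/- and 673 to 745 TPM in DN3 Arpp21-/-. Tspan13 made up 32.9 to 37.7% of the sum in DN2 WT and 44.2 to 48.3% in DN3 WT.

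**Figure D1:**
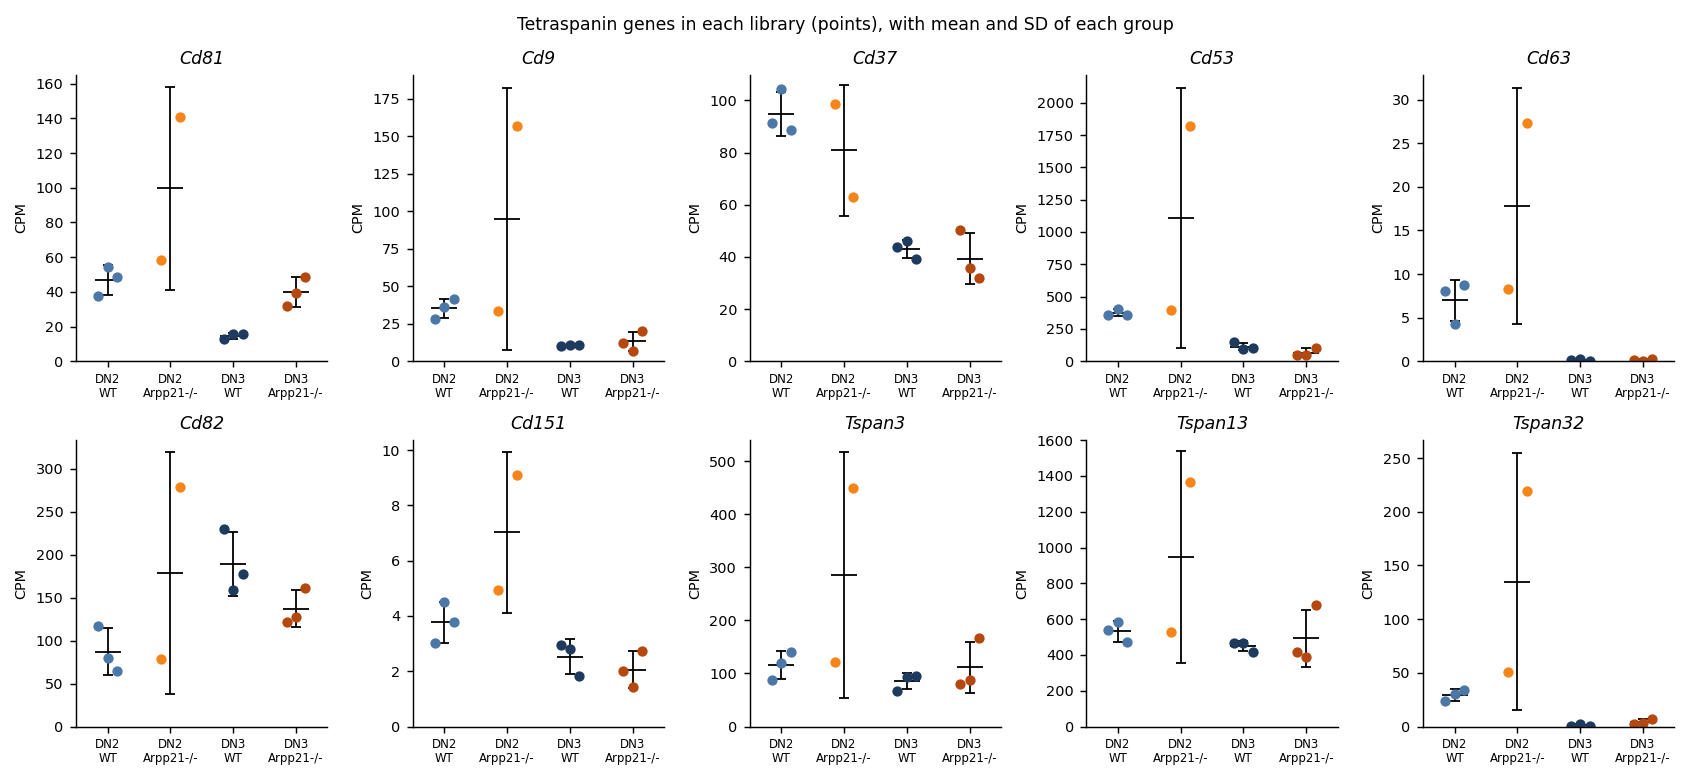
CPM of the 10 tetraspanin genes (one panel each, axis from 0 in CPM) in the 11 libraries, grouped by stage and genotype, with points for libraries and a bar for the mean with its SD (n = 3, and n = 2 in DN2 Arpp21-/-). Cd63 and Tspan32 are near 0 at DN3, Cd82 is higher in DN3 WT than in DN2 WT, Cd81 is higher in each DN3 Arpp21-/- library than in each DN3 WT library, and 1 of the 2 DN2 Arpp21-/- libraries is above all other libraries in 9 of the 10 panels.

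From DN2 to DN3 in WT thymocytes the mRNA of 4 of the 10 genes fell, namely Tspan32, Cd63, Cd81 and Cd37, and none rose at an adjusted p under 0.05 in edgeR's quasi-likelihood test. Among all genes tested, 4.08% were called in either direction and 2.22% were called lower. The fold change was negative for 9 of the 10 genes, with a median of -1.41 on the log2 scale beside 0.01 over all genes tested. In CPM, all DN3 WT libraries were below all DN2 WT libraries for 8 of the 10 genes, and above them for Cd82, while 17.3% of all genes were lower without overlap and 17.5% were higher. In TPM the libraries were without overlap for 6 genes that were lower, beside 12.9% of all genes, and for Cd82, which was higher, beside 21%. The DN3 WT libraries were part of the contrast from which Cd81 was chosen, so that its value here is not independent of that choice. In bulk RNA, fewer cells that express a gene and less of its RNA per cell cannot be told apart.

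Tspan32, for which DN2 WT libraries had 23.3, 30.7 and 33.8 CPM, had 0.958, 2.34 and 0.929 CPM in DN3 WT. The groups were far apart, on average 29.3 ± 5.36 against 1.41 ± 0.809 CPM (SD, n = 3 per stage), a 20.8-fold lower level at DN3. The log2 fold change was -4.37 (SE 0.678, edgeR adjusted p = 0.00555), and all 22 alternative settings called it. Cd63 was near the limit of detection at DN3. Its counts were 184, 95 and 227 in the DN2 WT libraries and 3, 6 and 1 in the DN3 WT libraries, or 506 against 10 in all. The CPM ratio of DN2 to DN3 over the summed counts was 48.4 (exact binomial 95% interval 26.1 to 101.6, counting error only), and the fitted log2 fold change of -5.53 (SE 0.914, edgeR adjusted p = 0.00772) depends on the prior count at such levels. The main Cd63 transcript had 92 to 227 counts in DN2 WT and 0 counts in each of the 6 DN3 libraries, so the few DN3 counts were assigned to its other transcripts. A count of 3, taken as the limit of detection, was worth 0.0802 to 0.242 CPM in a library.

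Cd81 had 37.5, 54.1 and 48.6 CPM in DN2 WT and 12.6, 15.7 and 15.6 CPM in DN3 WT. The level at DN2 was 3.19-fold that at DN3, without overlap, with a log2 fold change of -1.67 (SE 0.352, edgeR adjusted p = 0.0255). Cd37 had 91.5, 104.5 and 88.8 CPM in DN2 WT and 43.7, 45.9 and 39.3 CPM in DN3 WT, a 2.21-fold lower level at DN3 (log2 fold change -1.14, SE 0.27, edgeR adjusted p = 0.0428). The calls of Cd81 and Cd37 were close to the threshold. The replicate number was also used as a block, shared by WT and Arpp21-/- libraries of the same number. With it Cd81, Cd63 and Tspan32 passed and Cd37 did not (edgeR adjusted p = 0.0592), beside 3.2% of all genes. With a block for each replicate number within a genotype, the edgeR adjusted p was 0.0223 for Tspan32, 0.0578 for Cd81, 0.0792 for Cd63 and 0.0903 for Cd37, and 1 of the 10 was called, beside 1.57% of all genes. Leaving out 1 library at a time gave 1 to 7 called genes, with only Tspan32 left without DN3 WT replicate 1 (2.05% of all genes) and 7 genes called without either DN2 Arpp21-/- library (7.37% of all genes in both cases), which enters only through the estimate of the spread. Cd81 lost its call without any DN3 WT library, DN2 WT replicate 2 or 3 or DN3 Arpp21-/- replicate 2 (edgeR adjusted p up to 0.126), and Cd37 lost it without any WT library or DN3 Arpp21-/- replicate 2 (up to 0.203).

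The other 6 genes were not called. Cd53 had 357, 408 and 361 CPM in DN2 WT and 148, 93.3 and 99.8 CPM in DN3 WT (log2 fold change -1.72, SE 0.52, edgeR adjusted p = 0.117). Cd9 had 28.4, 36.1 and 41.2 CPM in DN2 WT and 10.0, 10.9 and 10.7 CPM in the DN3 WT libraries (-1.74, SE 0.539, edgeR adjusted p = 0.129). The groups did not overlap for either gene, and their fold changes were as large as that of Cd81 with a wider SE. Cd82 went the other way, with 118, 79.5 and 64.2 CPM in DN2 WT and 230.5, 159 and 178 CPM in DN3 WT (1.12, SE 0.429, edgeR adjusted p = 0.251), again without overlap. Without the 2 libraries that stood apart, the spread was smaller and 15.3% of all genes and 7 of the 10 were called, the 4 above and Cd53, Cd9 and Cd82, with edgeR adjusted p-values of 0.000225, 0.00151 and 0.00807 for the last 3 and log2 fold changes of -1.71, -1.72 and 1.14. Cd151, Tspan3 and Tspan13 had log2 fold changes of -0.57, -0.44 and -0.24 (SE 0.442, 0.465 and 0.354) and were called under none of the alternatives. Their DN2 WT means were 3.77, 116 and 531 CPM, and their DN3 WT means were 2.53, 85.3 and 451 CPM.

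Markers of other blood cells moved with the stage as well. The 7 myeloid markers summed to 246 to 326 TPM in DN2 WT, mainly Tyrobp, Fcer1g and Lyz2, and to 44.8 to 47.5 TPM in DN3 WT. Of the 7, 2 were called lower, beside 2.22% of all genes. The 6 platelet markers summed to 10.1 to 12.3 TPM in DN2 WT and 0.0288 to 0.25 TPM in DN3 WT. Only 3 of the 6 were tested, and 1 was called lower. In DN2 WT Itga2b had 9.02 to 10.6 TPM, Gp9 had 0 to 1.61 TPM, and Pf4, Ppbp, Gp1ba and Gp5 were at 0. The 5 mast cell markers summed to 577 to 947 TPM in DN2 WT and 15.7 to 29.6 TPM in DN3 WT, all of it from Cpa3. It was the only one tested and was called lower, while Mcpt4, Cma1, Tpsb2 and Fcer1a were at 0 in every library. The sum of the 5 B cell markers went the other way, with 47.0 to 56.8 TPM in DN2 WT and 82.7 to 86.8 TPM in DN3 WT. Nearly all of it was from Cd79b, the only one tested, which was not called. The part of these cells in the tetraspanin values was not tested.

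**Figure D2:**
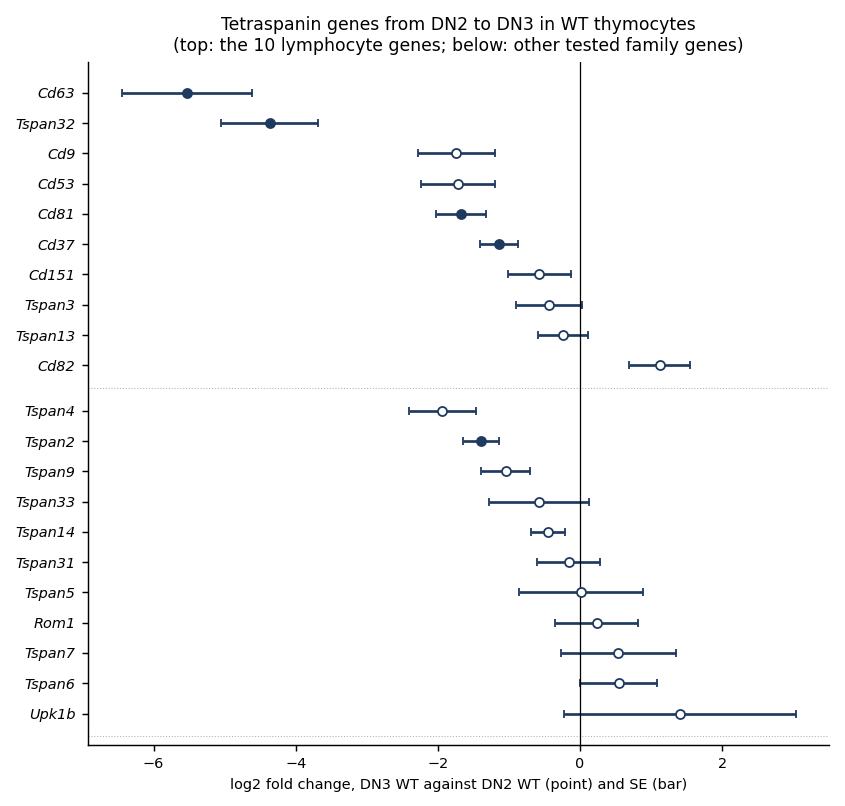
Log2 fold change of DN3 WT against DN2 WT (x axis) for the 10 tetraspanin genes (upper block) and the 11 other tested genes of the family (lower block), as points with the SE as bars, filled where the adjusted p was under 0.05. Tspan32, Cd63, Cd81 and Cd37 in the upper block and Tspan2 in the lower are filled, all left of 0, and Cd82 at 1.12 is the only one of the 10 to the right.

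Of 21 other tetraspanin genes, 11 passed the filter on low counts. Between DN2 WT and DN3 WT, 1 was called lower, beside 2.22% of all genes, and 10 were not called, with a median log2 fold change of -0.16. Tspan2 was the called gene, with 237 ± 59.5 CPM in DN2 WT and 90.2 ± 12.1 CPM in DN3 WT (SD, n = 3 each, log2 fold change -1.39, SE 0.252, edgeR adjusted p = 0.0126, called under 17 of 22 alternatives). The genes of the TspanC8 subgroup, which bind the protease Adam10, were tested for 3 of 6 and none was called, beside 4.08% of all genes. Partners of the tetraspanin web were mainly integrins, Ifitm proteins and adhesion receptors, of which 23 were tested. Of these, 5 were called lower and 1 higher, beside 306 and 256 of all 13780 genes (median log2 fold change -0.45). The 4 with the lowest adjusted p were Ifitm1, Itgb7, Cd44 and Ifitm3. Ifitm1, an interferon-induced membrane protein, had 69.8 ± 9.80 CPM in DN2 WT and 1 count over the 3 DN3 WT libraries. Itgb7, the integrin beta 7 chain, had 136 ± 33.1 and 8.11 ± 1.82 CPM (log2 fold change -4.06, SE 0.417, edgeR adjusted p = 0.000686), and Ifitm3, a relative of Ifitm1, had 30.5 ± 7.05 and 4.42 ± 1.63 CPM (-2.78, SE 0.44, edgeR adjusted p = 0.00609). Cd44 encodes an antigen used to sort the stages, so its fall from 86.3 ± 21.7 to 7.03 ± 1.90 CPM is not a finding. None of 15 genes of vesicles and lysosomes, the compartments of Cd63, was called, beside 4.08% of all genes (median log2 fold change -0.21).

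Cd81 was chosen for its level in DN3 Arpp21-/- thymocytes, which is given here without a test. The DN3 WT libraries had 12.6, 15.7 and 15.6 CPM, and the DN3 Arpp21-/- libraries had 31.7, 39.5 and 48.6 CPM. Each knockout library was above each WT library, the means being 39.9 ± 8.46 and 14.7 ± 1.75 CPM (SD, n = 3 per group), a ratio of 2.72 and a log2 fold change of 1.44 (SE 0.35). In TPM the ratio was 2.25, with 31.2 to 43.5 TPM against 14.1 to 17.7 TPM. With both libraries that stood apart left out the log2 fold change was 1.27 (SE 0.213), and over 22 alternatives it was between 1.12 and 1.59. The DN3 Arpp21-/- level thus lay between those of DN3 WT and of DN2 WT (46.8 ± 8.44 CPM), with 2 of the 3 DN3 Arpp21-/- libraries, replicate 3 among them, inside the DN2 WT range of 37.5 to 54.1 CPM. In TPM only replicate 2, at 43.5 TPM, was inside the DN2 WT range of 39.4 to 49.3 TPM. On that scale replicate 3 was the lowest of the DN3 Arpp21-/- libraries, at 31.2 TPM. A single transcript, of 1533 bases, took 98.3 to 99.7% of the Cd81 counts in the 4 groups.

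None of the other 9 genes was called between DN3 Arpp21-/- and DN3 WT by edgeR, where 0.00726% of all genes were called, and 1 of the 9 had an unadjusted p under 0.05. DESeq2 and limma-trend on TPM called 0 of the 9, and limma voom with sample quality weights called 1, Cd53, beside 0.856% of all genes. The 9 fold changes were positive for 4 genes and negative for 5, with a median of -0.13 on the log2 scale. The genes whose libraries lay apart were Tspan32, higher in CPM and in TPM, and, in TPM only, Cd53, Cd82 and Tspan13, which were lower. In CPM 1 of 9 was higher without overlap, beside 4.97% of all genes, and 0 of 9 were lower, beside 5.55%. In TPM 3 of 9 were lower, beside 8.32% of all genes, on a scale on which the median log2 fold change of all genes was itself -0.21.

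Tspan32 was at 0.958, 2.34 and 0.929 CPM in the DN3 WT libraries and at 2.79, 3.10 and 7.42 CPM in those of DN3 Arpp21-/-. Each knockout library was above each WT library, by a ratio of means of 3.15, but at a level that was a small part of that in DN2 WT (29.3 CPM). The log2 fold change of 1.64 (SE 0.621, edgeR adjusted p = 1.0) was between 0.84 and 2.22 over 22 alternatives, none of which called it. Cd53 was at 148, 93.3 and 99.8 CPM in the DN3 WT libraries and at 51.4, 45.5 and 104.5 CPM in those of DN3 Arpp21-/-, of which the last is replicate 3. The log2 fold change was -0.76 (SE 0.509, edgeR adjusted p = 1.0), and it was -1.23 (SE 0.193, edgeR adjusted p = 0.102) without the 2 libraries that stood apart and -1.12 (adjusted p = 0.021) in limma voom with sample quality weights. In TPM, which divides by length within a library, Cd53 had 83.0 to 136 TPM in DN3 WT and 41.4 to 58.1 TPM in DN3 Arpp21-/-, without overlap. Cd53 has a single annotated transcript here.

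Cd82 was at 230.5, 159 and 178 CPM in the DN3 WT libraries and at 122, 127 and 162 CPM in those of DN3 Arpp21-/- (log2 fold change -0.47, SE 0.424). Cd37 and Cd151 had log2 fold changes of -0.13 and -0.30 (SE 0.267 and 0.445), with overlapping libraries. Cd9, Tspan3 and Tspan13 had log2 fold changes of 0.32, 0.39 and 0.13 (SE 0.527, 0.465 and 0.354), and those of all 3 turned negative without DN3 Arpp21-/- replicate 3, where they were -0.12, -0.02 and -0.17. Each of these 3 genes was highest in that replicate among the DN3 Arpp21-/- libraries. Cd63 was at 4, 0 and 3 counts in the DN3 Arpp21-/- libraries and at 3, 6 and 1 counts in DN3 WT, and no fold change is given.

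**Figure D3:**
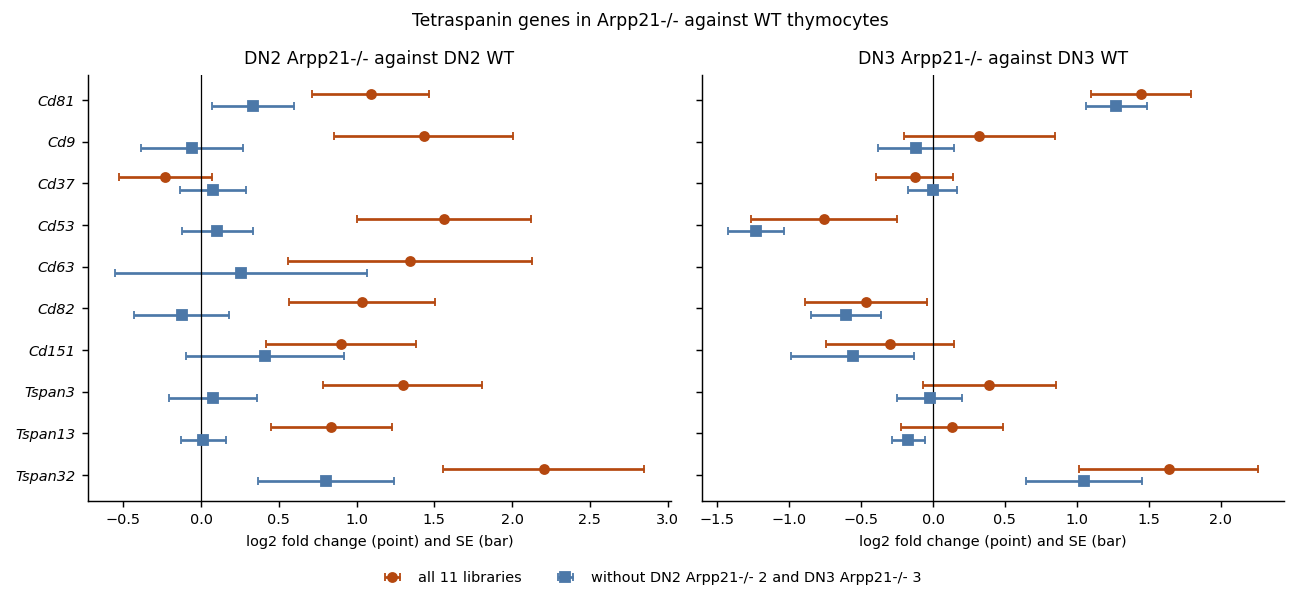
Log2 fold change of Arpp21-/- against WT (x axes) at DN2 (left) and at DN3 (right) for the 10 tetraspanin genes, as points with the SE as bars, in the fit of all 11 libraries (circles) and without the 2 libraries that stood apart (squares). At DN2 the squares of all genes but Tspan32, Cd151 and Cd81 lie within 0.26 of 0, at DN3 Cd81 stays at 1.27 and Cd53 at -1.23, and Cd63 at DN3 is left out because both groups are near the limit of detection.

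In DN2 thymocytes none of the 10 genes was called by edgeR, where 0.0% of all genes were, and 5 of the 10 had an unadjusted p under 0.05. DESeq2, limma voom with sample quality weights and limma-trend on TPM also called 0 of the 10. The fold change was positive for 9 genes, with a median of 1.19 on the log2 scale beside -0.06 over all genes tested, and it rested on 1 library. Without DN2 Arpp21-/- replicate 2 the median was 0.09, and without replicate 1 it was 1.80 and edgeR called 7 of the 10, beside 46.2% of all genes, with the spread of the lone library taken from the other groups. All 10 genes have mean transcript lengths between 1218 and 1910 bases, and the 2302 tested genes of that length had a median log2 fold change of 0.51, against -0.61 for the genes with transcripts of at least 4000 bases. At DN3 these medians were 0.16 and -0.20. The part of transcript length in the values of the 10 genes was not tested.

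Cd81 had 58.3 CPM in DN2 Arpp21-/- replicate 1 and 141 CPM in replicate 2, both above the 37.5 to 54.1 CPM of DN2 WT (log2 fold change 1.09, SE 0.377, edgeR adjusted p = 0.336). Without replicate 2 it was 0.34 with an adjusted p of 1.0 in edgeR. In TPM the 2 libraries had 51.3 to 59.1 TPM against 39.4 to 49.3 TPM in DN2 WT, a ratio of 1.21. Tspan32 had 50.5 and 219 CPM, both above the 23.3 to 33.8 CPM of DN2 WT (2.20, SE 0.647, edgeR adjusted p = 0.336), and 0.81 without replicate 2. In TPM it had 47.4 and 74.7 TPM against 22.4 to 31.6 TPM, a ratio of 2.31. Cd151 was the third gene without overlap in CPM, at 4.95 and 9.09 CPM against 3.01 to 4.50 CPM, and 3 of 10 genes stood beside 7.51% of all genes.

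For the other genes, in CPM, replicate 1 was inside the range of DN2 WT and replicate 2 was outside it. In TPM replicate 2 was inside that range for Tspan13 (393 TPM, WT 367 to 462 TPM) and Cd82 (87.3 TPM, WT 54.1 to 107 TPM), and outside it for the rest. Cd53 had 350 and 565 TPM, both above the 305 to 326 TPM of DN2 WT. Cd53 had 398 and 1820 CPM (WT 357 to 408 CPM), Cd9 33.3 and 157 CPM (WT 28.4 to 41.2 CPM) and Tspan3 121 and 449 CPM (WT 87.9 to 141 CPM). Cd82 had 78.7 and 278 CPM, Tspan13 529.6 and 1368 CPM, and Cd63 8.26 and 27.3 CPM. Their log2 fold changes were between 0.84 for Tspan13 and 1.56 for Cd53 in all libraries, and between -0.13 for Cd82 and 0.26 for Cd63 without replicate 2. In CPM Cd37 alone had a lower value in replicate 2, with 98.7 and 63.0 CPM against 88.8 to 104.5 CPM in DN2 WT (log2 fold change -0.23, SE 0.299). In the interaction of stage and genotype, which asks whether the change at DN3 differs from that at DN2, edgeR called 0 of 9 genes without Cd81, beside 0.0% of all genes, and 2 of the 9 had an unadjusted p under 0.05. DESeq2, limma voom with sample quality weights and limma-trend on TPM called 0 of the 9. Without DN2 Arpp21-/- replicate 1, which leaves replicate 2 as the only library of its group, edgeR called 4 of the 9, beside 25% of all genes.

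Tspan32 and Cd81 are neighbours in the genome. In GRCm38 Tspan32 lies at chr7:143005046-143019644 and Cd81 at chr7:143052739-143067934, both on the plus strand, 33.1 kb apart with no protein-coding gene between them in the annotation. Both were higher without overlap in Arpp21-/- than in WT libraries at both stages, in CPM and in TPM. For Cd81 the DN3 difference is the one it was chosen from. In CPM, 4.97% of all genes were higher without overlap at DN3 and 7.51% at DN2. These shares were not counted in TPM or for both stages together. Both genes were called lower from DN2 WT to DN3 WT, and the DN3 WT libraries were part of the choice of Cd81. Of 10 genes listed around Cd81, these 2 included, 6 were tested. None of the 6 was called between Arpp21-/- and WT at DN2 by edgeR in all 11 libraries, beside 0.0% of all genes. At DN3, where Cd81 is given without a test, none of the others was called, beside 0.00726% of all genes. Tssc4, named for its place as the nearest tested gene on the other side of Cd81, had log2 fold changes of 1.22 (SE 0.472) at DN2 and 0.38 (SE 0.43) at DN3. It overlaps Trpm5 on the other strand, which had at most 0.7 TPM in any library, and the library kit is not stated to keep strand.

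**Figure D4:**
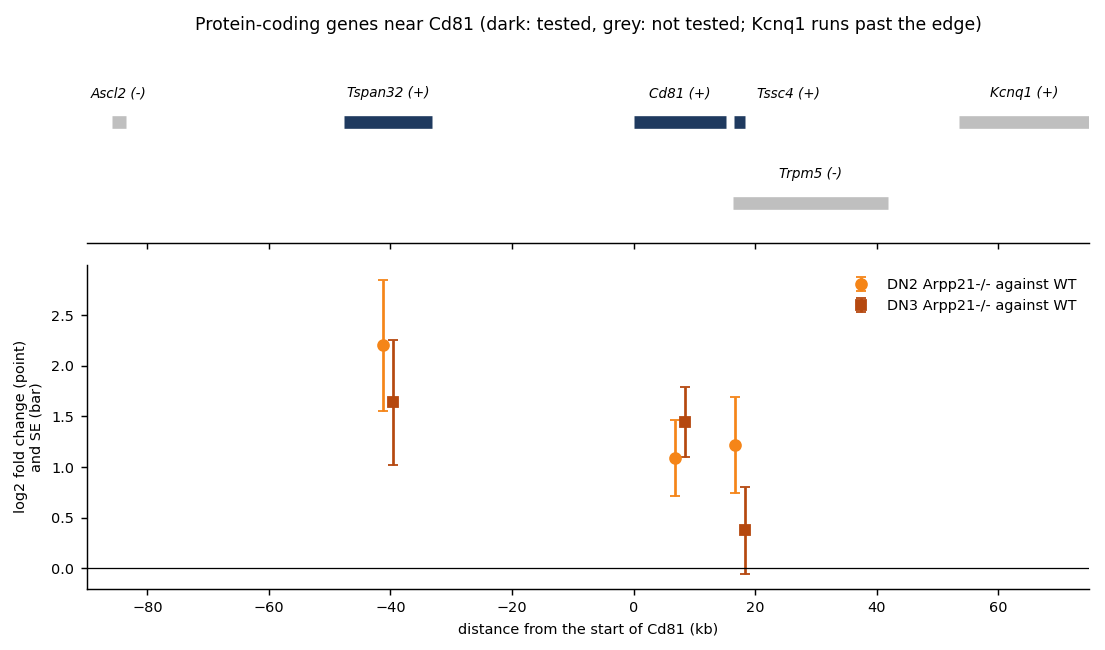
Upper panel: protein-coding genes around Cd81 on chromosome 7, by distance from the start of Cd81 in kb, with strand, dark where tested. Lower panel: log2 fold change of Arpp21-/- against WT at DN2 (circles) and DN3 (squares) with the SE as bars, for Tspan32, Cd81 and Tssc4, where 1 point of the 6, Tssc4 at DN3 with 0.38, has a bar that reaches 0.

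The promoters of the 4 genes called lower from DN2 WT to DN3 WT are shown because they moved together. They are the 250 bases before the RefSeq transcription start in GRCm38.p6, 5′ to 3′ along the gene, at chr7:143004796-143005045 (plus), chr10:128909095-128909344 (plus), chr7:143052500-143052749 (plus) and chr7:45238840-45239089 (minus), with motif matches on either strand in capitals.
Tspan32: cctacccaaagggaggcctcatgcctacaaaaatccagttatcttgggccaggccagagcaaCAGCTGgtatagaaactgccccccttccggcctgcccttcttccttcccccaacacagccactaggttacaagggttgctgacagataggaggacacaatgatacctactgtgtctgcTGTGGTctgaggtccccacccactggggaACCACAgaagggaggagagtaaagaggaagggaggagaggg
Cd63: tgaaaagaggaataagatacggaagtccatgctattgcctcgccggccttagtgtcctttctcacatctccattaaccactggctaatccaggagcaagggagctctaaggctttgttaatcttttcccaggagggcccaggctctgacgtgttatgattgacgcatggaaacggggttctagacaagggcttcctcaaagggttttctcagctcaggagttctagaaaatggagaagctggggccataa
Cd81: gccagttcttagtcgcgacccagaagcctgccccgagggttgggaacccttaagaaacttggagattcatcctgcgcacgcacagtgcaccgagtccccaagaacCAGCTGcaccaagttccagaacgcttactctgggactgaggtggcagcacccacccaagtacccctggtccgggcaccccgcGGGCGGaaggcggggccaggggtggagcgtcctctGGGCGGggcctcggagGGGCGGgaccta
Cd37: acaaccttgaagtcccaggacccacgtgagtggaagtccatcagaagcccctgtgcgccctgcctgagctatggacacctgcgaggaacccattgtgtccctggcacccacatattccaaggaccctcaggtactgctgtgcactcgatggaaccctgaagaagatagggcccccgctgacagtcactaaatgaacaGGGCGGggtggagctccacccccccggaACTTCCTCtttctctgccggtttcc
Letters were searched on both strands, and no motif searched contains another. Tspan32 had 2 matches to the RUNX core and 1 to the E-box, Cd81 had 3 to the GC box and 1 to the E-box, Cd37 had 1 to the PU.1 box and 1 to the GC box, and Cd63 had no match. The 10 genes have 14 promoters in the RefSeq table, which were compared with all 32851 promoters of the same length. Cd82 and Cd151 have several of the 14, so the counts are of promoters and not of genes. Matches in the promoters of Cd82 were to the PU.1 box, the RUNX core, the GC box and the CCAAT box. The PU.1 box, searched as GAGGAAGT, was in 2 of the 14 and in 2.4% of all promoters. The RUNX core, with the letters TGTGGT, was in 5 of the 14 and in 14% of all promoters. For the GC box, searched by its letters GGGCGG, these values were 7 and 32.7%. For the E-box, with CAGCTG as its letters, they were 3 and 13%. The box named for its letters CCAAT was in 4 of the 14 and in 33.8% of all promoters. The ETS core, searched as CCGGAAGT, and the TATA box, for which the letters TATAAA were used, were in 0 of the 14 and in 2.9% and 12.4% of all promoters. A match is a description of these letters and not a binding site.

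The genes whose pattern over the 11 libraries was most like that of Cd81 were sought among 8509 other genes with a mean of at least 10 CPM, by the root mean square difference of log2(CPM + 1) after centring each gene on its mean. The 5 closest were Cryzl1 (0.367), Klk8 (0.41), Gnb4 (0.41), Slc41a3 (0.415) and Trbj2-1 (0.428). Cryzl1 had group means of 29.6, 56.1, 12.3 and 20.4 CPM in WT and Arpp21-/- at DN2 and in WT and Arpp21-/- at DN3, where Cd81 had 46.8, 99.6, 14.7 and 39.9 CPM. Among the tetraspanin genes Tspan3 was closest, with a difference of 0.539, and Tspan32 was farthest, with 1.34. The likeness is over libraries that share stage, genotype and, in replicate 2 of DN2 Arpp21-/-, the same departure from the other libraries.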

How the data were processed

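RNA of sorted DN2 and DN3 thymocytes was sequenced as paired-end reads of SmartSeq V4 and Nextera libraries, from total RNA by the labels and after poly-A selection by the study's methods. The authors ran kallisto 0.46 on Ensembl 101 transcripts of GRCm38. The deposited estimated counts are expected counts per transcript without normalization, the deposited TPM are the same counts per effective length, which sum to the same total in each library, and the deposited effective lengths, in bases and in another unit than expression, were used for the length offset. GENCODE M21 gave the gene of 116728 of 119414 transcript identifiers.

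Estimated counts were summed per gene, rounded, filtered by filterByExpr (minimum count 10, total 15) and tested, two-sided, with edgeR 4.0.16 (R 4.3.3, glmQLFit, TMM factors, Benjamini-Hochberg over 13780 genes, called at an adjusted p under 0.05) in all 11 libraries as 4 groups. The SE is the size of the fold change (log2) over the root of F. Common dispersion was 0.281, and 0.105 without the 2 libraries that stood apart. Alternatives were DESeq2 1.42.0 or its size factors, limma 3.58.1 (voom with quality weights, or limma-trend on log2(TPM + 1) and log2(TPM + 0.1)), other filters, a length offset, blocks and left-out libraries. The main fit used group means without pairing, and the replicate numbers entered only as blocks in alternatives, since the labels give no shared animal. Deviations from the group means correlated between DN2 WT and DN3 WT libraries of the same number (r = 0.514, 0.163 and 0.364). Libraries of unlike number were not compared, so these values cannot show whether the numbers mark pairs. Between WT and Arpp21-/- the values were 0.389, -0.212 and 0.136 at DN3, and 0.219 and 0.228 at DN2. Between DN2 and DN3 Arpp21-/- they were 0.675 and -0.671.

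The genes, lists and alternatives were chosen with earlier results of these data known. All 10 tetraspanin genes are named in each comparison except the interaction. Of other lists at most 4 called genes are named per comparison, by lowest adjusted p, and the 5 genes closest to Cd81 in pattern. Sequences are from GENCODE M21 transcripts and from RefSeq (GRCm38.p6). No cell type marker that was tested was called between Arpp21-/- and WT by edgeR in all 11 libraries, beside 0.00726% of all genes at DN3 and 0.0% at DN2. With so few calls among all genes, this cannot show that the cells of the genotypes were alike. Plots were made with matplotlib 3.10.9. The 3′-UTR window of Cd81 is not reported here.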

Additional observations from a re-analysis of the deposited data

Results flagged for a closer look

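Against the WT mean of its stage, each Arpp21-/- library had a difference of Cd53, named here after its values were seen, that was opposite in sign at the 2 stages. All 3 DN3 Arpp21-/- libraries were below the DN3 WT mean and both DN2 Arpp21-/- libraries were above the DN2 WT mean in CPM. The genotypes overlapped in CPM at both stages, and in TPM at neither. At DN3, replicate 3 of Arpp21-/- had 104.5 CPM, above the WT libraries with 93.3 and 99.8 CPM. The difference of the log2 fold changes, DN3 minus DN2, was -2.32 (SE 0.757), with an adjusted p of 0.964 in the edgeR interaction test, which it did not pass. It was -0.87 without DN2 Arpp21-/- replicate 2, where the replicate left had 398 CPM against 357 to 408 CPM in DN2 WT, and -1.34 when DN3 Arpp21-/- replicate 3 was left out too, in neither case past the threshold. Without DN2 Arpp21-/- replicate 1, which leaves replicate 2 alone in its group, it was -3.03 (edgeR adjusted p = 0.0101), past the threshold. Groups of 3 or fewer libraries were not screened for single outlying libraries.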

How the results depend on the processing

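Between DN3 WT and DN2 WT, edgeR called 562 of all genes and 4 of the 10 tetraspanin genes. The count of all genes was 1192 with DESeq2, 2326 with limma voom and sample quality weights, 216 with genotype and replicate as a block, 2226 without both libraries that stood apart, and 243 to 1080 when 1 library was left out. The tetraspanin genes called were 7, 1 and 7 with voom, with the genotype replicate block and without both libraries, and 1 to 7 when 1 library was left out. The replicate block, which gives all libraries of the same number 1 shared effect, WT and Arpp21-/- alike, gave 441 genes and 3 tetraspanin genes.

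Between DN3 Arpp21-/- and WT, where edgeR called 1 gene, the count was 16 with DESeq2, 118 with voom, 2 on log2(TPM + 0.1), 0 with the replicate block, 0 with the libraries of 1 stage only, 5 without both libraries and 0 to 1 when 1 library was left out, and voom called 1 tetraspanin gene, Cd53. Between DN2 Arpp21-/- and WT, and in the interaction, where edgeR called 0 genes (2020 and 373 at an unadjusted p under 0.05), DESeq2 called 38 and 10 genes. When 1 library was left out the counts were 0 to 6777 genes and 0 to 7 tetraspanin genes at DN2, and 0 to 3664 and 0 to 4 in the interaction, the highest without DN2 Arpp21-/- replicate 1.

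The sign of the fold change between Arpp21-/- and WT turned for several genes. At DN3, where no fold change of Cd63 is given, Cd37 was 0.003 without DN3 Arpp21-/- replicate 3, Cd9 was -0.31 with voom, -0.03 on log2(TPM + 1) and on log2(TPM + 0.1), and -0.12 without DN3 Arpp21-/- replicate 3 and without both libraries, Tspan3 was -0.01 with voom and -0.02 without that library and without both, and Tspan13 was -0.15 with voom, -0.18 on TPM and -0.17 without that library and without both. The highest values with 1 library left out were 0.62, 0.58 and 0.28 for these 3 genes. At DN2, without replicate 2 of Arpp21-/- and without both libraries, Cd9 was -0.06, Cd37 was 0.08 and Cd82 was -0.13 and -0.12, and Tspan13 was -0.02 on TPM. Without replicate 1 of Arpp21-/-, the first 3 were 2.15, -0.60 and 1.67. The cause was not tested. On log2(TPM + 1) the median log2 fold change of all genes moved from -0.06 to -0.45 at DN2, from -0.00 to -0.21 at DN3 and from 0.01 to 0.13 between the WT stages. Depth limits Cd63 at DN3, where a library held at most 6 counts.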
